A study of Mus musculus with 8 samples.

Results

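The genes described here are 10 members of the bone morphogenetic protein (BMP) branch of signalling: the ligand gene *Bmp4*, the decoy receptor gene *Bambi*, the inhibitory SMAD genes *Smad6* and *Smad7*, the 4 ID genes *Id1*, *Id2*, *Id3* and *Id4*, and the homeobox genes *Msx1* and *Msx2*. They were picked by symbol, 1 entry per symbol, from the 50902 genes of the table, and all 10 were in it. RNA was sequenced from mouse embryonic stem cells (ESCs) of the E14 line, kept in N2B27 medium with leukaemia inhibitory factor (LIF) and the 2i inhibitors of MEK and GSK3, which hold the cells in the naive pluripotent state. Both lines carried a Flag- and HA-tagged (F/H) *Baz2a* transgene, integrated with PiggyBac transposase and made resistant to the siRNA against *Baz2a*. The transgene coded for the wild-type protein in ESC + F/H-BAZ2ArWT and for a protein without TAM, the RNA-binding domain of BAZ2A, in ESC + F/H-BAZ2ArΔTAM. All cells of both lines received siRNA-*Baz2a*, which targets the endogenous transcript, and were collected 3 days later. Each line had been grown from single-cell clones, so a property of a clone and the effect of the missing domain cannot be told apart with 1 line of each kind. There were 4 libraries per line. The labels do not state that they came from separate cultures, and the p-values then measure only the spread between these libraries.

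BMP ligands bind type I and type II receptor kinases, which phosphorylate SMAD1, SMAD5 and SMAD9. These join SMAD4, enter the nucleus and act on target genes, among which the ID genes are the best known. ID proteins have a helix-loop-helix domain but no DNA-binding region, so they hold E proteins and other bHLH factors off DNA. BMP4 together with LIF is known to keep mouse ESCs from neural differentiation through ID proteins, and the pathway limits itself through SMAD6, SMAD7 and BAMBI. The comparison asks how these genes are expressed when BAZ2A lacks its RNA-binding domain.

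The promoters of 7 of the 10 genes were found in the RefSeq table (GRCm38.p6): *Id2*, *Id3*, *Id4*, *Bmp4*, *Smad6*, *Msx1* and *Msx2*. Those of *Id1*, *Smad7* and *Bambi* were not in it and could not be searched. The 250 bases before each start were searched on both strands for GGCGCC, a GC-rich element to which SMAD1 and SMAD5 can bind, for the palindromic SMAD element GTCTAGAC, and for the short SMAD element CAGAC, and no match overlapped another. GGCGCC was found once in *Id4*, at 148 bases before the start, and once in *Id2*, at 231 bases before it, and in none of the other 5 windows. Among all 32851 promoters of the table, 9.59% held it. GTCTAGAC was in none of the 7 windows and in 0.167% of all promoters. CAGAC was found only in the *Id3* window, at 2 places, while 42.2% of all promoters held it. The 7 windows had a GC content between 61.6% and 75.6%, against a median of 52.4% over all promoters. The shares over all promoters were not matched for GC content. The GGCGCC windows are shown because *Id2* and *Id4* are the members with the largest differences between the lines. The *Id4* sequence is the whole window, chr13:48260866-48261115 on the plus strand. The *Id2* sequence, from a window overlapping an annotated *Id2* exon, is a stretch of 30 bases around the match, chr12:25096306-25096335 on the minus strand. Both read 5′ to 3′ on the coding strand, with GGCGCC in capitals.
Id4: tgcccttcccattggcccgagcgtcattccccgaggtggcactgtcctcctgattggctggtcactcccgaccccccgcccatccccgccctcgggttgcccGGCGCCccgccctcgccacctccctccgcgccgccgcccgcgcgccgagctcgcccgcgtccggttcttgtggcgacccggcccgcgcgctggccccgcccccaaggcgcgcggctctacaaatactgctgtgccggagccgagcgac
Id2: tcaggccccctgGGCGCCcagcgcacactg
A match of letters is a description and was not tested as a binding site.

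The levels are given as RPKM, reads scaled to the kilobases of a gene and to the depth of the library, for which the kilobases are those of the whole gene span with its introns, so the value of a gene with long introns is low. The 8 libraries held between 6580845 and 8690066 reads on genes. The levels of all 8 ESC marker genes were above 0 in every library, and their summed level ranged from 100.1 to 102.4 RPKM in ESC + F/H-BAZ2ArWT and from 79.5 to 85.3 RPKM in ESC + F/H-BAZ2ArΔTAM. Most of the lower sum was from *Tdgf1*, *Sox2* and *Klf4*, whose means differed by -7.77, -6.88 and -2.68 RPKM. *Esrrb* was also called lower (log2 fold change -0.20; limma, adjusted p = 0.00176), while *Pou5f1*, *Nanog*, *Zfp42* and *Tfcp2l1* overlapped between the lines and were not called. The part of these markers in the results below was not tested. The sums of primitive endoderm, trophoblast and mesoderm markers overlapped between the lines and were at most 0.583 RPKM. Single markers among them, named after their values were seen, were called, *Eomes* lower (log2 fold change on reads -0.46; limma voom, adjusted p = 0.0203) and *Kdr* and *Cdx2* higher (0.96 and 0.39; limma voom, adjusted p = 0.00305 and 0.0326), and *Gata4*, with no overlap between the lines, had 0.39 (limma voom, adjusted p = 0.0719). The part of these markers in the results was not tested. Of the 6 fibroblast markers, 4 had at most 3 reads in any library. *Baz2a*, to which endogenous and transgene reads both count, averaged 10.5 ± 0.529 RPKM (SD, n = 4) over the ESC + F/H-BAZ2ArWT libraries and 18.3 ± 0.824 RPKM (SD, n = 4) over the ESC + F/H-BAZ2ArΔTAM libraries, and the part of this 1.74-fold difference in the results below was not tested. Fold changes were tested with limma on log2(RPKM + 0.1) over the 9000 genes that averaged 0.1 RPKM or more, and are given as ESC + F/H-BAZ2ArΔTAM minus ESC + F/H-BAZ2ArWT. They understate changes of genes near 0.1 RPKM. A gene was called with a Benjamini-Hochberg adjusted p under 0.05 over all genes tested. A second test, limma voom, was run on whole reads recovered from RPKM, for the 12658 genes that averaged 10 reads or more. In these bulk samples, fewer cells with a transcript and less of it per cell cannot be told apart.

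Of the 10 genes, 7 reached 0.1 RPKM and were tested on RPKM. *Id1* and *Id2* rose, *Id4* and *Smad7* fell, and *Bmp4*, *Bambi* and *Msx2* were not called, where 19.9% of all genes tested were called higher and 15.9% lower. The median log2 fold change of these 7 was 0.030, against 0.011 over all 9000 genes, so the group did not move one way. *Id3*, *Smad6* and *Msx1* lay below the filter. On reads 9 genes could be tested, all but *Id3*, with the same 2 higher and the same 2 lower, where 21.9% of all genes were called higher and 21.9% lower. Among the 9 genes that averaged 10 reads or more, the ranges of the lines did not overlap for 3, *Id2*, *Id4* and *Smad7*, while the same was seen for 37.8% of all genes at this depth. With a log2 fold change of 0.58 or more in size and an unadjusted p under 0.05, *Id2* was higher and *Id4* lower, where 2.32% of all tested genes were higher and 1.47% lower.

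**Figure D1:**
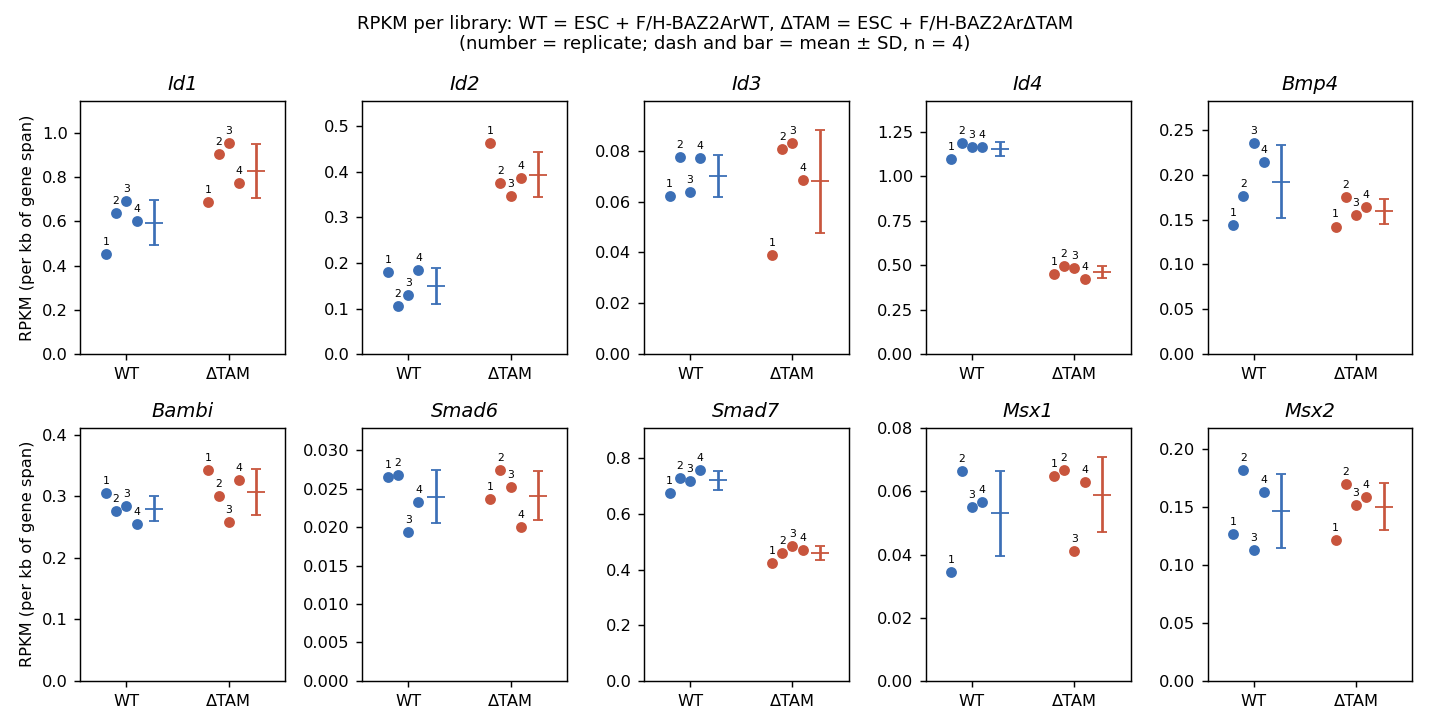
RPKM of the 10 genes in each of the 8 libraries, 1 panel per gene, with the vertical axis from 0. Points are libraries with their replicate number, and the dash with its bar is the mean ± SD of 4 libraries. The points of the lines are fully apart for *Id2*, *Id4* and *Smad7*, nearly apart for *Id1*, and mixed for the other 6 genes.

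*Bmp4* (chr14:46383520-46390669, minus strand, mm10) codes for a secreted ligand of the pathway. The 4 ESC + F/H-BAZ2ArWT libraries held *Bmp4* at 0.143, 0.177, 0.235 and 0.214 RPKM, and the 4 ESC + F/H-BAZ2ArΔTAM libraries at 0.142, 0.176, 0.155 and 0.164 RPKM. The ranges overlapped, with the 2 highest libraries of all in ESC + F/H-BAZ2ArWT and the lowest values of the lines nearly equal. Averages were 0.192 ± 0.0407 RPKM for ESC + F/H-BAZ2ArWT and 0.159 ± 0.0141 RPKM for ESC + F/H-BAZ2ArΔTAM (SD, n = 4 each). Its log2 fold change was -0.17 with a 95% interval from -0.40 to 0.068 (limma, adjusted p = 0.242), and on reads it was -0.25 (limma voom, adjusted p = 0.208, and 0.0497 without ESC + F/H-BAZ2ArWT replicate 1). The 95% interval on reads ran from -0.57 to 0.074, at 46 to 82 reads per library. The ESC + F/H-BAZ2ArWT libraries varied by 21.2% (coefficient of variation) where counting alone gives 12%. The pair of genes that overlap *Bmp4* on the opposite strand, *Gm15217* and *Gm15222*, had at most 3 reads in any library.

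*Bambi* (chr18:3507957-3516404, plus strand) codes for a receptor without a kinase domain, which binds ligand-receptor complexes and blocks the signal. Libraries of ESC + F/H-BAZ2ArWT had 0.305, 0.276, 0.284 and 0.255 RPKM, and those of ESC + F/H-BAZ2ArΔTAM had 0.343, 0.300, 0.258 and 0.326 RPKM. The highest library was one of ESC + F/H-BAZ2ArΔTAM, but another of the same line lay beside the lowest of all, and the ranges overlapped. For *Bambi* the log2 fold change was 0.095, with a 95% interval from -0.073 to 0.26 (limma, adjusted p = 0.344). *Bambi* was the only member whose coordinates in the table differ from those of GENCODE vM21.

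The inhibitory SMADs compete with the receptor-regulated SMADs and bring ubiquitin ligases to the receptors. SMAD6 acts mainly on the BMP branch, and SMAD7 on both the BMP and the TGF-β branches. *Smad7* (chr18:75367529-75395935, plus strand) was at 0.676, 0.729, 0.719 and 0.759 RPKM in ESC + F/H-BAZ2ArWT and at 0.424, 0.458, 0.484 and 0.470 RPKM in ESC + F/H-BAZ2ArΔTAM. Every ESC + F/H-BAZ2ArΔTAM library was below every ESC + F/H-BAZ2ArWT library, with a wide gap between 0.484 and 0.676 RPKM. The mean fell 1.57-fold, from 0.720 ± 0.0344 to 0.459 ± 0.0259 RPKM (SD, n = 4 each). On the log2(RPKM + 0.1) scale the change was -0.55 (SE 0.044; limma, adjusted p = 1.14e-04) and on reads -0.65 (SE 0.050; limma voom, adjusted p = 9.82e-10). With 544 to 1112 reads per library it was the most deeply covered of the 10 genes. The call held with any 1 library left out, with log2 fold changes from -0.58 to -0.52 and adjusted p from 3.18e-04 to 7.41e-04.

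*Smad6* (chr9:63953076-64022059, minus strand) spans 68984 bases for 2971 bases of exon, so its RPKM is low although 65 to 95 reads fell on it. It stood at 0.0265, 0.0267, 0.0193 and 0.0233 RPKM in the libraries of ESC + F/H-BAZ2ArWT, and at 0.0237, 0.0275, 0.0253 and 0.020 RPKM in those of ESC + F/H-BAZ2ArΔTAM. The libraries of the lines were fully mixed. The difference of the means was 1.29e-04 RPKM (exact permutation test over libraries, two-sided, p = 0.971; the least p that 4 against 4 libraries allow is 0.0286). On reads, the log2 fold change was -0.0062 with a 95% interval from -0.28 to 0.27 (limma voom, adjusted p = 0.975). *Smad7* was thus called lower and *Smad6* was not called, and the difference between their changes was not tested.

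*Id4* (chr13:48261228-48266026, plus strand) was the ID gene that fell. ID4 is known for its part in neural and mammary development. In the 4 ESC + F/H-BAZ2ArWT libraries *Id4* was at 1.09, 1.19, 1.16 and 1.16 RPKM, from 261 to 293 reads, and in the 4 ESC + F/H-BAZ2ArΔTAM libraries at 0.452, 0.495, 0.481 and 0.420 RPKM, from 98 to 123 reads. All ESC + F/H-BAZ2ArWT libraries were above all ESC + F/H-BAZ2ArΔTAM libraries, and the gap between the lines was many times the range within either. The mean fell from 1.15 ± 0.0398 to 0.462 ± 0.0332 RPKM (SD, n = 4 each), 2.49-fold lower. The log2 fold change was -1.16 (SE 0.047; limma, adjusted p = 8.1e-06) and -1.32 on reads (SE 0.085; limma voom, adjusted p = 5.13e-11). The spread of the libraries, 3.46% and 7.2% as coefficients of variation, did not exceed the 5.99% and 9.51% of counting alone. The antisense gene *A330033J07Rik* had at most 2 reads in any library, and a further overlapping gene on the opposite strand, *Gm49291*, was not analysed here. Markers of neuroectoderm moved with *Id4*: the summed level of their 6 genes was 0.534 to 0.676 RPKM in ESC + F/H-BAZ2ArWT and 0.304 to 0.332 RPKM in ESC + F/H-BAZ2ArΔTAM, 1 of the 6 (*Neurog2*) had at most 3 reads in every library, and most of the sum was *Nes*, at 0.498, 0.406, 0.521 and 0.418 RPKM in ESC + F/H-BAZ2ArWT and 0.212, 0.246, 0.226 and 0.244 RPKM in ESC + F/H-BAZ2ArΔTAM. Their part in the *Id4* result was not tested.

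*Id2* (chr12:25093799-25097140, minus strand) changed in the opposite direction. ID2 is widely expressed in progenitor cells and restrains their differentiation. Its libraries gave 0.181, 0.105, 0.129 and 0.186 RPKM for ESC + F/H-BAZ2ArWT, from 18 to 32 reads, and 0.463, 0.376, 0.348 and 0.387 RPKM for ESC + F/H-BAZ2ArΔTAM, from 55 to 75 reads. The lowest ESC + F/H-BAZ2ArΔTAM library, at 0.348 RPKM, was well above the highest ESC + F/H-BAZ2ArWT library, at 0.186 RPKM. *Id2* thus averaged 0.150 ± 0.0396 RPKM and 0.393 ± 0.0494 RPKM (SD, n = 4 each), 2.62-fold higher in ESC + F/H-BAZ2ArΔTAM. The log2 fold change was 0.99 (SE 0.12; limma, adjusted p = 7.83e-04), and on reads, where the prior count is smaller than the pseudocount of 0.1 RPKM, 1.40 (SE 0.19; limma voom, adjusted p = 3.92e-06). The call held with any 1 library left out, with log2 fold changes from 0.90 to 1.06.

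*Id1* (chr2:152736251-152737410, plus strand) is the ID gene most often read as a direct answer to BMP signals. *Id1* was measured at 0.451, 0.637, 0.691 and 0.602 RPKM in ESC + F/H-BAZ2ArWT, and at 0.687, 0.906, 0.955 and 0.772 RPKM in ESC + F/H-BAZ2ArΔTAM. The ranges met, as the highest ESC + F/H-BAZ2ArWT library, 0.691 RPKM, was just above the lowest ESC + F/H-BAZ2ArΔTAM library, 0.687 RPKM. The mean rose 1.39-fold, from 0.595 ± 0.103 to 0.830 ± 0.123 RPKM (SD, n = 4 each). The log2 fold change was 0.42 (SE 0.13; limma, adjusted p = 0.0406) and on reads 0.48 (SE 0.18; limma voom, adjusted p = 0.0313), with 26 to 59 reads per library. The call was near the threshold. The limma adjusted p was 0.0691, 0.0623 or 0.0726 without ESC + F/H-BAZ2ArWT replicate 1, 2 or 4, and 0.0959, 0.0984 or 0.0658 without ESC + F/H-BAZ2ArΔTAM replicate 2, 3 or 4. It was 0.0923 without the filter on low values, and on reads the adjusted p of the voom fit was 0.126 without ESC + F/H-BAZ2ArWT replicate 1, and 0.0680 and 0.0985 without ESC + F/H-BAZ2ArΔTAM replicates 2 and 3, within a range from 0.0174 to 0.126 over all 8 libraries left out in turn. The spread between libraries, 17.3% and 14.8%, was that of counting, 17.0% and 14.4%.

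*Id3* (chr4:136143497-136145755, plus strand) was hardly expressed. It was found at 0.0624, 0.0774, 0.0636 and 0.0772 RPKM in ESC + F/H-BAZ2ArWT, and at 0.0392, 0.0809, 0.0831 and 0.0686 RPKM in ESC + F/H-BAZ2ArΔTAM, which is 7, 9, 7 and 9 reads and 4, 8, 10 and 9 reads. Both the lowest and the highest library belonged to ESC + F/H-BAZ2ArΔTAM. The means differed by -0.00222 RPKM (two-sided exact permutation test, p = 0.886), and at 4 to 10 reads per library a difference was not detectable unless large. Without the filter the 95% interval of the log2 fold change, dampened by the pseudocount, ran from -0.25 to 0.20.

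**Figure D2:**
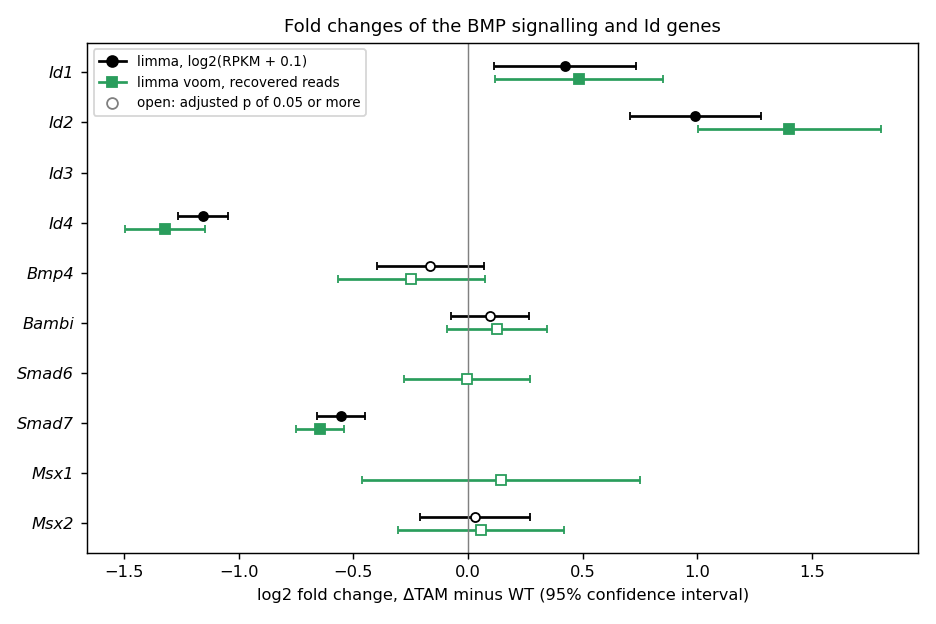
Log2 fold changes (ESC + F/H-BAZ2ArΔTAM minus ESC + F/H-BAZ2ArWT, horizontal axis) of the 10 genes with 95% confidence intervals, from limma on log2(RPKM + 0.1) in black circles and from limma voom on reads in green squares, where filled symbols have an adjusted p under 0.05. *Id1* and *Id2* lie right of 0, *Id4* and *Smad7* left of it. The other intervals include 0, and genes below a filter have no symbol for that test.

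To set the ID genes beside each other, levels were computed as reads per kilobase of exon and per 1000000 reads on genes. On this exon scale the 4 ID genes summed to 15.8 ± 0.859 (SD, n = 4) in ESC + F/H-BAZ2ArWT and to 13.8 ± 0.826 (SD, n = 4) in ESC + F/H-BAZ2ArΔTAM, while their make-up differed. *Id4* made up 62.8%, 61.7%, 59.7% and 59.4% of the sum in the ESC + F/H-BAZ2ArWT libraries and 28.8%, 28.3%, 27.5% and 26.9% in the ESC + F/H-BAZ2ArΔTAM libraries. The share of *Id1* was 20.8%, 26.6%, 28.4% and 24.6% in ESC + F/H-BAZ2ArWT and 35.1%, 41.5%, 43.8% and 39.7% in ESC + F/H-BAZ2ArΔTAM. The share of *Id2* was 11.4%, 5.99%, 7.28% and 10.4% in ESC + F/H-BAZ2ArWT and 32.5%, 23.6%, 21.9% and 27.2% in ESC + F/H-BAZ2ArΔTAM. So *Id4* was the leading ID transcript in every ESC + F/H-BAZ2ArWT library, and *Id1* led in every ESC + F/H-BAZ2ArΔTAM library. *Id3* kept a mean share of 5.25% and 5.77%. These shares follow from the levels above and add no test of their own. With the length of the principal transcript in place of all exons, the mean share of *Id4* was 56.3% in ESC + F/H-BAZ2ArWT and 24.0% in ESC + F/H-BAZ2ArΔTAM, and that of *Id1* 28.8% and 42.9%.

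**Figure D3:**
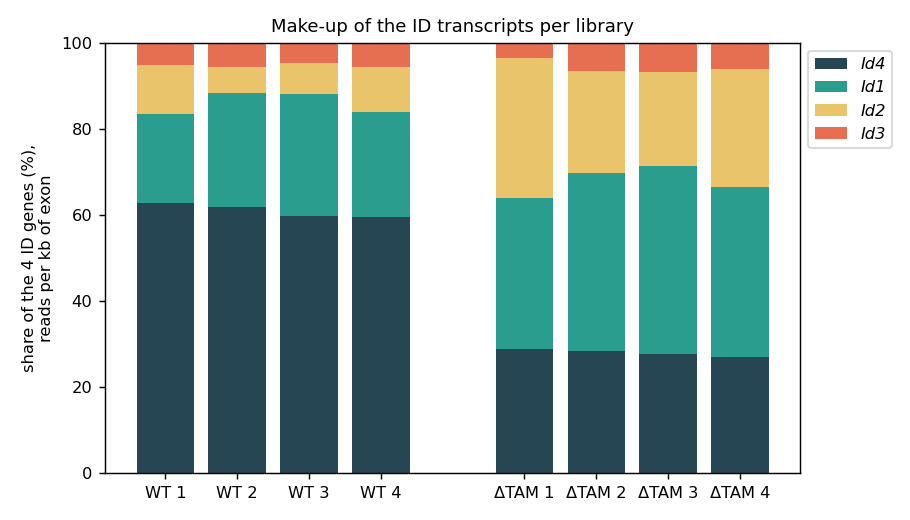
Share of *Id4*, *Id1*, *Id2* and *Id3* in the summed level of the 4 ID genes (%, reads per kb of exon), 1 stacked bar per library. *Id4* fills 59.4% to 62.8% of the ESC + F/H-BAZ2ArWT bars and 26.9% to 28.8% of the ESC + F/H-BAZ2ArΔTAM bars, while the *Id1* and *Id2* parts are taller in each of the latter.

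*Msx1* and *Msx2* code for homeodomain repressors that respond to BMP signals in many embryonic tissues. *Msx2* (chr13:53466884-53473074, minus strand) was at 0.127, 0.182, 0.113 and 0.163 RPKM in ESC + F/H-BAZ2ArWT and at 0.122, 0.170, 0.152 and 0.159 RPKM in ESC + F/H-BAZ2ArΔTAM. The ESC + F/H-BAZ2ArΔTAM range lay inside the ESC + F/H-BAZ2ArWT range. The log2 fold change of *Msx2* was 0.030, with a 95% interval from -0.21 to 0.27 (limma, adjusted p = 0.846). *Msx1* (chr5:37820485-37824583, minus strand) was at 0.0344, 0.0663, 0.0551 and 0.0567 RPKM in ESC + F/H-BAZ2ArWT and at 0.0648, 0.0668, 0.0412 and 0.0630 RPKM in ESC + F/H-BAZ2ArΔTAM. Each line had 1 library well below its others, and the rest lay together. The difference of the means was 0.00582 RPKM (two-sided exact permutation test, p = 0.514), from 7 to 15 reads per library, and on reads the log2 fold change was 0.14, with a 95% interval from -0.46 to 0.75 (limma voom, adjusted p = 0.719).

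On the exon scale, the order of the levels in ESC + F/H-BAZ2ArWT was *Smad7* (31.3 ± 1.55), *Id4* (9.62 ± 0.329), *Bmp4* (4.47 ± 0.949), *Id1* (3.98 ± 0.685), *Smad6* (3.73 ± 0.536), *Bambi* (3.12 ± 0.227), *Msx2* (2.47 ± 0.539), *Id2* (1.38 ± 0.367), *Id3* (0.831 ± 0.0987) and *Msx1* (0.754 ± 0.190), as mean ± SD of 4 libraries. *Smad7* and *Id4* each stood clear of the next gene. The ranges of *Bmp4*, *Id1*, *Smad6* and *Bambi* overlapped, as did those of *Bambi* and *Msx2* and those of *Id3* and *Msx1*, so these neighbours did not differ beyond their spread. In ESC + F/H-BAZ2ArΔTAM the order began with *Smad7* (19.9 ± 1.04) and *Id1* (5.54 ± 0.794), followed by *Id4* (3.85 ± 0.266), *Smad6* (3.74 ± 0.482), *Bmp4* (3.68 ± 0.312), *Id2* (3.60 ± 0.471) and *Bambi* (3.41 ± 0.428), whose ranges all overlapped. *Msx2* (2.53 ± 0.337), *Msx1* (0.835 ± 0.170) and *Id3* (0.801 ± 0.235) came last. *Id4* thus went from a level well above the ligand gene to one within the spread of it, and *Id2* from well below to the same band.

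For context, 72 other genes of the BMP pathway were taken from a list ordered by role. On RPKM 20 could be tested, of which ESC + F/H-BAZ2ArΔTAM had 6 higher and 3 lower, where 19.9% and 15.9% of all genes were, with a median log2 fold change of -0.0029 against 0.011 over all genes. On reads 39 could be tested, of which 13 were higher and 7 lower, where 21.9% of all genes were called in each direction, with a median of -0.0055 against -0.0027 over all genes. The remaining 33 were below both filters, 9 of them at 0 in every library. Of the 14 other ligand genes 1 was tested on RPKM and 3 on reads. *Gdf3*, a ligand of early pluripotent cells, had a log2 fold change of -0.041 (limma, adjusted p = 0.444). *Bmp7*, named after its values were seen, was at 0.0465, 0.0526, 0.0409 and 0.0461 RPKM in ESC + F/H-BAZ2ArWT and at 0.0193, 0.0240, 0.0184 and 0.0255 RPKM in ESC + F/H-BAZ2ArΔTAM. The lines did not overlap for *Bmp7*, with a log2 fold change on reads of -1.09 (SE 0.12; limma voom, adjusted p = 1.61e-07).

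Of the 11 receptor and coreceptor genes, 8 were tested on reads, 4 higher and 1 lower, against 21.9% of all genes each way. *Eng*, the coreceptor endoglin, fell (log2 fold change -0.17, SE 0.033; limma, adjusted p = 0.00659), while *Bmpr1a*, the main type I receptor of ESCs, and *Acvr2b* had log2 fold changes of 0.054 and -0.053 (limma, adjusted p = 0.248 and 0.551). The 2 highest fold changes in this role, named after their values were seen, were those of *Rgma* and *Rgmb*, which code for GPI-anchored coreceptors that bind BMP ligands. *Rgma* was at 0.0675, 0.0779, 0.0620 and 0.0694 RPKM in ESC + F/H-BAZ2ArWT and at 0.119, 0.107, 0.114 and 0.111 RPKM in ESC + F/H-BAZ2ArΔTAM, without overlap (log2 fold change on reads 0.71, SE 0.082; limma voom, adjusted p = 3.7e-07). *Rgmb* was likewise higher in every ESC + F/H-BAZ2ArΔTAM library (0.60, SE 0.12; limma voom, adjusted p = 2.36e-04). The other 2 higher calls on reads, also named after their values were seen, were the type II receptor genes *Bmpr2* (0.26; limma voom, adjusted p = 0.0223) and *Acvr2a* (0.30; limma voom, adjusted p = 0.0299). Each of these calls was lost with any of ESC + F/H-BAZ2ArWT replicates 1, 2 and 3 and ESC + F/H-BAZ2ArΔTAM replicates 1 and 4 left out, with adjusted p from 0.0525 to 0.0947 for *Bmpr2* and from 0.0637 to 0.115 for *Acvr2a*.

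All 4 SMAD genes of the list were tested on reads, 1 higher and 1 lower, against 21.9% of all genes each way. *Smad5* rose, from 0.225, 0.219, 0.222 and 0.221 RPKM to 0.281, 0.295, 0.300 and 0.287 RPKM, with a log2 fold change of 0.28 (SE 0.026; limma, adjusted p = 2.02e-04). *Smad4*, the common partner, had a log2 fold change of -0.026 (limma, adjusted p = 0.511), and *Smad1*, named after its values were seen, one of -0.0055 on reads (limma voom, adjusted p = 0.973). *Smad9*, also named after its values were seen, fell from 48, 32, 52 and 35 reads to 9, 6, 7 and 19 reads. Its libraries did not overlap, and the log2 fold change on reads was -2.04 (SE 0.30; limma voom, adjusted p = 7.84e-06).

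Of the 16 secreted inhibitors, 5 were tested on reads, 1 higher and 2 lower, against 21.9% of all genes each way. *Fstl1*, a follistatin-like glycoprotein gene, rose (log2 fold change 0.48, SE 0.038; limma, adjusted p = 1.09e-04), and *Fst*, which codes for follistatin, a trap of activins and some BMPs, fell (-0.42, SE 0.070; limma, adjusted p = 0.00308). *Chrd*, the gene of chordin, had a log2 fold change of -0.20 (limma, adjusted p = 0.185). *Dand5*, named after its values were seen, was lower on reads (-0.72; limma voom, adjusted p = 0.0435), a call that was lost with 6 of the 8 libraries left out in turn, all but ESC + F/H-BAZ2ArWT replicate 1 and ESC + F/H-BAZ2ArΔTAM replicate 4, with adjusted p from 0.0519 to 0.138. Of the proteases, *Furin*, which cleaves BMP precursors, rose (0.31, SE 0.036; limma, adjusted p = 6.47e-04) and *Pcsk6* had a log2 fold change of 0.020 (limma, adjusted p = 0.724).

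All 9 genes for proteins that act on SMADs inside the cell were tested on reads, and 3 were higher, against 21.9% of all genes. They were *Tob1*, a repressor of SMAD-dependent transcription (0.43, SE 0.047; limma, adjusted p = 4.23e-04), and the corepressor genes *Skil* (0.32, SE 0.051; limma, adjusted p = 0.0024) and *Ski* (0.15, SE 0.043; limma, adjusted p = 0.0319). The *Ski* call on RPKM held with ESC + F/H-BAZ2ArΔTAM replicate 4 left out, and was lost with any other single library left out, where the adjusted p ran from 0.0507 to 0.0712 and the log2 fold change from 0.12 to 0.16, and it was lost without the filter on low values (adjusted p = 0.0629). On reads *Ski* was called with all 8 libraries (0.19; limma voom, adjusted p = 0.00253) and with each left out in turn (adjusted p from 8.21e-04 to 0.0121). The ubiquitin ligase genes *Smurf1* and *Smurf2* had log2 fold changes on reads of -0.0083 and -0.030 (limma voom, adjusted p = 0.937 and 0.689). Both were named after their values were seen.

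Of the 9 further target genes, 3 were tested on reads, 1 higher and 2 lower, against 21.9% of all genes each way. *Dusp9*, which codes for a phosphatase of ERK and is known to be induced by BMP in ESCs, was lower (-0.23, SE 0.067; limma, adjusted p = 0.0305). Its call on RPKM was lost with 6 of the 8 libraries left out in turn, all but ESC + F/H-BAZ2ArWT replicate 1 and ESC + F/H-BAZ2ArΔTAM replicate 3, with adjusted p from 0.0628 to 0.0755 and log2 fold changes from -0.23 to -0.20, and it was lost without the filter on low values (adjusted p = 0.0674). On reads *Dusp9* was called with all 8 libraries (-0.24; limma voom, adjusted p = 0.00677) and with each left out in turn (adjusted p from 0.00225 to 0.0301). *Gata2*, named after its values were seen, fell from 23, 22, 25 and 21 reads to 9, 10, 6 and 9 reads (-1.39, SE 0.27; limma voom, adjusted p = 2.35e-04). *Tbx20*, named after its values were seen too, was higher (0.73, SE 0.24; limma voom, adjusted p = 0.0151, and 0.0729 without ESC + F/H-BAZ2ArWT replicate 2). Of the 3 E protein genes, whose products ID proteins bind, 2 were called higher on reads, against 21.9% of all genes. *Tcf3* had a log2 fold change of 0.13 on RPKM (limma, adjusted p = 0.0754) and 0.14 on reads (limma voom, adjusted p = 0.0161, but 0.0527 without ESC + F/H-BAZ2ArWT replicate 4 and 0.0712 without ESC + F/H-BAZ2ArΔTAM replicate 2), and *Tcf4*, named after its values were seen, one of 0.40 on reads (limma voom, adjusted p = 1.28e-06). *Tcf12*, named likewise, had one of 0.099 (limma voom, adjusted p = 0.196).

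**Figure D4:**
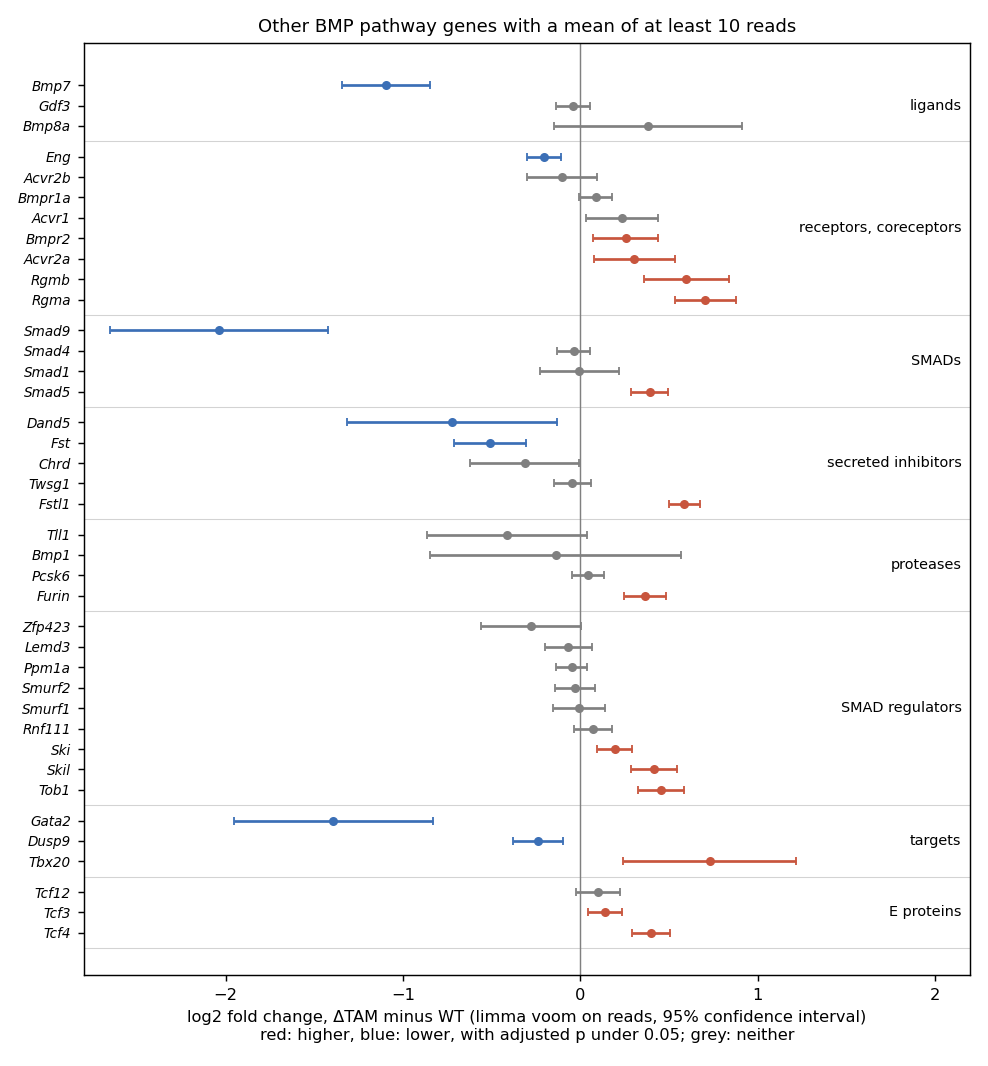
Log2 fold changes on reads (limma voom, ESC + F/H-BAZ2ArΔTAM minus ESC + F/H-BAZ2ArWT, horizontal axis) with 95% confidence intervals for the 39 other BMP pathway genes that averaged 10 reads or more, grouped by role. Red genes were higher and blue genes lower with an adjusted p under 0.05. Among the SMADs, the interval of *Smad9* is left of 0 and that of *Smad5* right of it.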

How the data were processed

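RNA from 4 ESC + F/H-BAZ2ArWT and 4 ESC + F/H-BAZ2ArΔTAM libraries was poly(A)-selected and sequenced as single-end reads. Ribosomal RNA reads were taken out by the authors, who trimmed adapters with Trimmomatic (0.36 per the submitters' processing notes), mapped with STAR to mm10, derived the coverage of each gene's exons with their own pipeline, and deposited RPKM per library without pooling replicates. The annotation release, the use of strand in counting and the handling of reads with several map positions are not given in the sources used here, so overlapping genes and close paralogs are uncertain.

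The deposited RPKM, multiplied by the gene span in kb, came in whole multiples of 1 step per library for 99.9% of values (within 0.1), and each step was taken as 1 read. This gave 7276522 to 7709135 reads on genes in ESC + F/H-BAZ2ArWT and 6580845 to 8690066 in ESC + F/H-BAZ2ArΔTAM. Of 51288 entries, 386 that repeat a symbol were set aside.

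limma 3.58.1 (R 4.3.3) was fitted to all 8 libraries without covariates on log2(RPKM + 0.1), with eBayes using the mean-variance trend, for genes that averaged 0.1 RPKM or more. limma voom was fitted on the recovered reads for genes that averaged 10 reads or more. p-values were Benjamini-Hochberg adjusted over all genes tested. Members under the filter were compared with two-sided exact permutation tests. The genes named are the 10 members, *Baz2a* and, of the pathway list, the 3 genes per role with the smallest adjusted p in the fit on RPKM and any with a log2 fold change of 0.58 or more in size and p under 0.05. Other names are marked as chosen after their values were seen. The members and lists were chosen with earlier results of these data known. Alternatives were other pseudocounts (0.01 and 1 RPKM), no filter, a filter at 1 RPKM, median-ratio scaling, quantile normalization, no trend, a replicate block, the voom fit and each library left out. Added after the data were seen were voom with each library left out or with the block, and principal-transcript lengths. On simulated reads for the ESC + F/H-BAZ2ArΔTAM against ESC + F/H-BAZ2ArWT comparison, 100 genes were changed by 0.5 and 100 by 1 on the log2 scale. Of these, 95% and 99% were called by the RPKM fit (8992 genes, mean estimates 0.42 and 0.84, 8 false calls). With voom, 97% and 100% were called (12655 genes, 9 false calls). The changed genes were drawn from levels above both filters, and the spread beyond counting was set to the same low value for all genes. *Bmp4* and *Msx2* lay below those levels, as did the members under the filter, so these shares do not apply to them.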

Additional observations from a re-analysis of the deposited data

Results flagged for a closer look

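Among the values of the 10 genes in each line, 20 groups of 4 libraries, the lowest *Msx1* library of ESC + F/H-BAZ2ArΔTAM, at 0.0412 RPKM and 9 reads, lay far from the other 3 libraries of its line relative to their range. Chance gives such a gap in about 1 of 20 groups.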

How the results depend on the processing

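*Id2*, *Id4* and *Smad7* kept their direction and their call under every alternative that tested them, with log2 fold changes on RPKM from 0.28 to 1.36, from -1.30 to -0.56 and from -0.64 to -0.24, where the smallest sizes came from a pseudocount of 1 RPKM. No member had a mean of at least 1 RPKM, so that filter left none to test. Without any filter, 1 member was called higher instead of 2. With single libraries left out the number called higher ranged from 1 to 2. With a log2 fold change of 0.58 or more in size, 2 members were lower with a pseudocount of 0.01 RPKM and with voom, 1 to 2 with single libraries left out, and with a pseudocount of 1 RPKM 0 were higher and 0 lower. Among the pathway genes, 8 were higher and 6 lower without a filter, where the *Ski* and *Dusp9* calls were lost (limma, adjusted p = 0.0629 and 0.0674), 1 higher and 1 lower at 1 RPKM, and 13 higher and 7 lower with voom.

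Same-numbered libraries of the lines correlated by 0.0623, 0.0329, 0.0238 and 0.0552, none over 0.1. 3 of 4 correlated best with their own number, the exception being ESC + F/H-BAZ2ArWT replicate 3. Whether same-numbered libraries shared a culture or a batch was not tested. With the number as a replicate block, 1557 genes were higher and 1239 lower instead of 1790 and 1435, *Id1* had an adjusted p of 0.0044 (limma), the same numbers of members were called and the *Dusp9* call was lost (adjusted p = 0.0572).

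Small differences changed sign. *Msx2* had log2 fold changes of -0.0063 and -0.037 without ESC + F/H-BAZ2ArWT replicate 1 or 3 and of -0.0071 without ESC + F/H-BAZ2ArΔTAM replicate 2, and *Pcsk6* one of -0.0036 with quantile normalization. The *Id3* difference was 1.96e-04 and 1.42e-04 RPKM without ESC + F/H-BAZ2ArWT replicate 2 or 4 and 0.00737 RPKM without ESC + F/H-BAZ2ArΔTAM replicate 1. That of *Smad6* was -0.00142 and -9.35e-05 RPKM without ESC + F/H-BAZ2ArWT replicate 3 or 4 and -9.88e-04 and -2.63e-04 RPKM without ESC + F/H-BAZ2ArΔTAM replicate 2 or 3. That of *Msx1* was -4.36e-04 RPKM without ESC + F/H-BAZ2ArWT replicate 1. Over all single libraries left out, these values ranged from -0.037 to 0.098 for *Msx2*, and in RPKM from -0.00726 to 0.00737 for *Id3*, from -0.00142 to 0.00151 for *Smad6* and from -4.36e-04 to 0.0117 for *Msx1*. The cause was not tested. At 4 to 15 reads per library, *Id3* and *Msx1* could show large differences only.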
